A study of Mus musculus with 6 samples.

Results

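The ATP-binding cassette (ABC) transporters and the organic ion carriers of the Slco and Slc22a families were examined in whole liver of insulin-resistant (IR) mice. Members were taken by gene name: the rows that start with Slco, with Slc22a, or with Abca, Abcb, Abcc, Abcd or Abcg and a digit, without Abcb11, pseudogenes and antisense transcripts. This gave 85 of the 54532 genes listed: 15 Slco, 25 Slc22a, 16 Abca, 9 Abcb, 10 Abcc, 4 Abcd and 6 Abcg genes. All 6 livers came from male C57BL/6J mice with no engineered allele, put on a high-fat diet (HFD) at 8 weeks of age for 6 weeks and then fasted for 16 h. The IR insulin group (3 mice) received 0.75 units of insulin per kg body weight by intraperitoneal injection, and the IR vehicle group (3 mice) received bovine serum albumin, in which the insulin was carried. Livers were taken 6 h after the injection, and each library came from 1 mouse. Both groups had the diet and the fast, and no chow-fed or uninjected liver was analysed here. The comparison asks which transporter messages differed after insulin in livers that were already resistant to it.

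Hepatocytes take up bile acids, bilirubin, hormones, drugs and organic ions from sinusoidal blood. Carriers of the Slco and Slc22a families, which use no ATP, account for part of this uptake. ABC proteins hydrolyse ATP to move lipids, bile constituents, conjugates, porphyrins and fatty acyl-CoA. They sit at the canalicular membrane, which faces the bile, at the basolateral membrane, which faces the blood, and in mitochondria, peroxisomes and lysosomes. In liver these genes are known as targets of nuclear receptors and hepatocyte factors, and for setting how fast drugs and bile constituents are cleared.

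The libraries held 18449986 to 21827619 counts, and 13377 genes were kept after low counts had been removed. IR vehicle replicate 2 stood apart from the other libraries: 16470 genes had a count in it, against 18389 to 18874 in the other libraries, and 32.5% of tested genes lay more than 1 log2 unit from the median of the other 5 livers, against 2.46% to 11.9% elsewhere. IR vehicle replicate 3 was the next furthest at 11.9%. Of the hepatocyte markers, 4 of 5 were found under their symbol and all 4 were abundant, with a summed level of 61049.7 to 148206 CPM (counts per 1000000, after scaling by library) in the vehicle livers and 50202 to 65324 in the insulin livers. The kidney transporter Slc22a6 was at 0 counts in all 6 libraries, and 3 of 5 kidney tubule markers were at 0 throughout. The erythroid list (4 genes, none at 0 in every library) summed to 395 to 1182 CPM in vehicle and 292 to 448 CPM in insulin livers, and the B cell list (4 genes) to 4.97 to 40.3 and 2.68 to 9.59 CPM. Of these, 2 erythroid genes and 1 B cell gene passed the criteria given below, lower after insulin. Both sums were highest in vehicle replicate 2, though Cd79a of the B cell list had 0 counts there and was highest in insulin replicate 1. The part of both lists in the results on transporters was not tested.

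Of the 85 transporter genes, 54 had enough counts to be tested: 6 Slco, 14 Slc22a, 9 Abca, 8 Abcb, 8 Abcc, 4 Abcd and 5 Abcg genes. The mean level was at least 100 CPM for 10 of them, between 10 and 100 CPM for 22, between 1 and 10 CPM for 19 and under 1 CPM for 3. Of the 31 genes that were not tested, 19 had no count in any library, and none of the other 12 had more than 47 counts over the 6 libraries together. A count of 0 allows up to 3 counts, which came to 0.13 to 0.184 CPM depending on the library, and such limits cover counting error only. The genes without a count included the renal carriers Slc22a6, Slc22a8 and Slc22a2, the ion channel regulator Abcc8 of the pancreatic beta cell, and Slco1a5 and Slco1a6, neighbours of the hepatic Slco1 genes.

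Divided by the length of the exons, so that genes could be set beside each other, the highest level was that of Slco1b2, with a mean of 299 CPM per kb over the 6 livers (178 to 752). The uptake carrier Slco1a1 stood at 94.8 (65.1 to 225) and the peroxisomal ABC protein Abcd3 close to it at 86.5 (61.4 to 162). The ranges of Slco1b2 and Slco1a1 overlapped. Within each of the 6 livers, though, Slco1b2 had the higher CPM, over a shorter exon length (4929 against 5276 bases). The ranges of Slco1a1 and Abcd3 overlapped too, and their order was not separated by the spread between livers. Further down came the basolateral pump Abcc3 at 38.5 CPM per kb (34.0 to 43.0), the canalicular pump Abcc2 at 31.5 (24.2 to 46.2), the phospholipid floppase Abcb4 at 22.2 (17.6 to 29.0) and the cholesterol exporter Abca1 at 18.6 (10.6 to 34.9). The drug efflux pumps Abcb1a and Abcb1b were low, at 0.218 and 0.379 CPM per kb.

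Insulin against vehicle, none of the 54 tested transporter genes passed the study's criteria (a log2 fold change of 0.35 or more in either direction and p under 0.05 before adjustment), where 2.86% of all tested genes did. No gene of the whole table had an adjusted p under 0.05 in edgeR's quasi-likelihood test (0.0% of 13377 genes), while 383 had an unadjusted p under 0.05 and DESeq2 gave 548 such genes with none after adjustment. The adjusted p of the 54 transporter genes ran from 0.852 to 0.999 in that test, and none had an unadjusted p under 0.05. The fold change was below 0 for 39 of 54 transporter genes, or 72.2%, with a median log2 fold change of -0.21, against 51.4% and a median of -0.02 over all tested genes. By family the median was -0.73 for Slco (5 of 6 genes below 0), -0.36 for Abca (8 of 9), -0.21 for Abcg (5 of 5), -0.19 for Slc22a (10 of 14), -0.17 for Abcb (5 of 8), -0.11 for Abcd (2 of 4) and 0.03 for Abcc (4 of 8). All 3 insulin livers lay below all 3 vehicle livers for 4 transporter genes, among them Abcd3, Abcc2 and Abcc4, where 6.04% of all tested genes did so. None lay above, where 6.25% of all tested genes did. In whole liver, fewer cells of a type and less RNA per cell cannot be told apart.

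**Figure D1:**
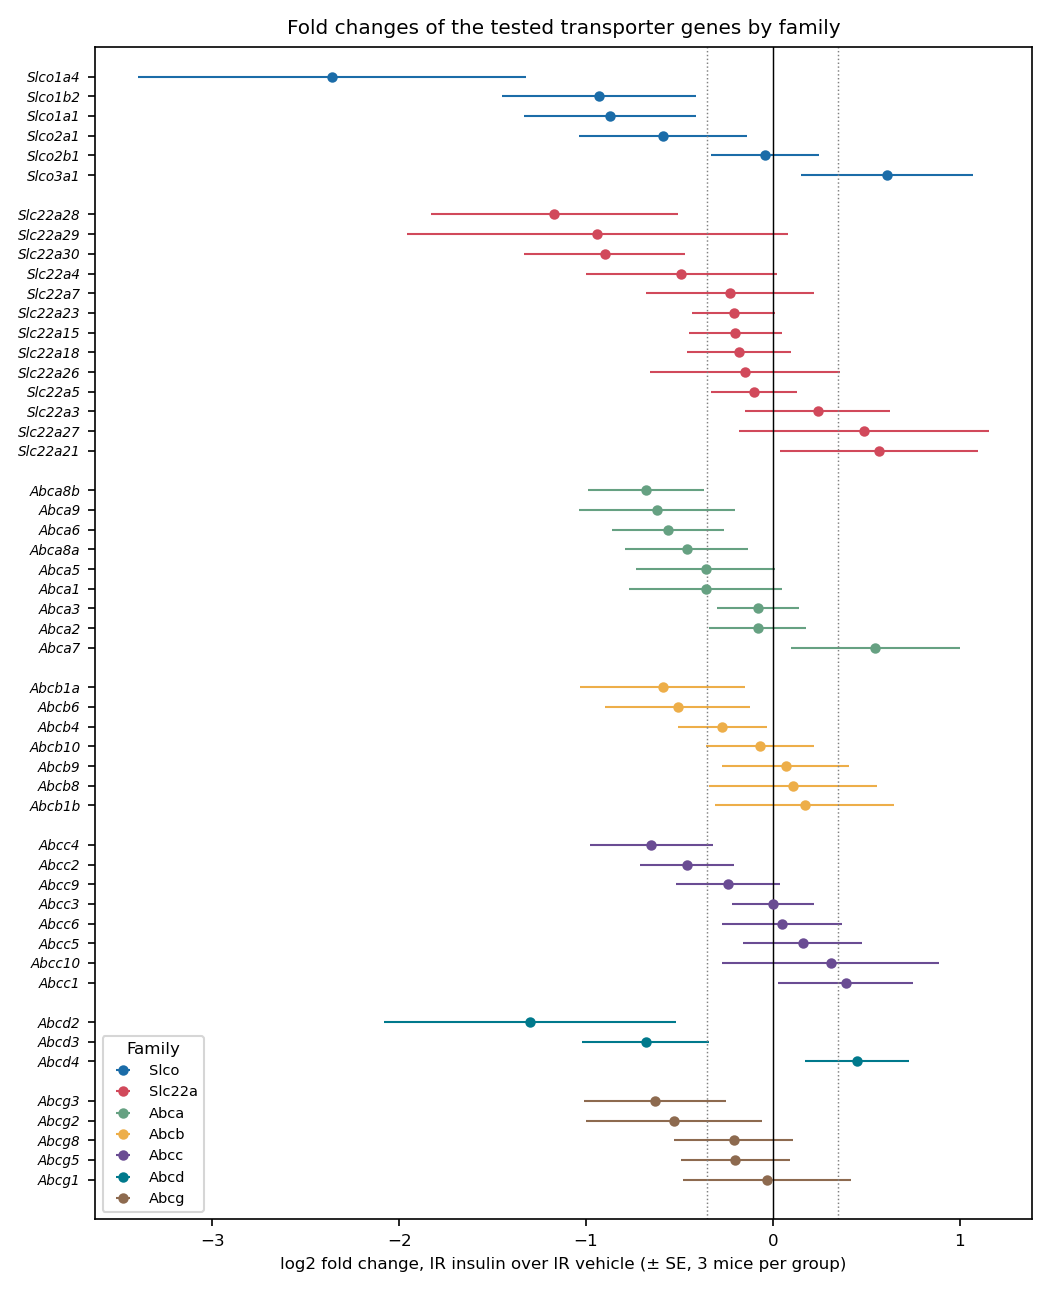
log2 fold change of 51 of the 54 tested transporter genes, IR insulin over IR vehicle, with bars of ± 1 SE (3 mice per group), grouped and coloured by family. Dotted lines mark an absolute log2 fold change of 0.35, and 38 of the 51 points lie below 0, with Slco1a4 the lowest at -2.36 and the widest bar.

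These calls turned on which vehicle liver was included. Without vehicle replicate 1, 8 of 55 transporter genes passed the criteria, against 9.81% of all genes in that fit. Without vehicle replicate 3 again 8 of 54 passed (6.51% of all genes), and without vehicle replicate 2 there were 2 of 55, Slco1a4 and Abcb1b (3.69%). Leaving out any insulin liver gave none of 55, in fits where only 0.727% to 1.05% of all genes passed. Slco1a1 and Slc22a30 were among the genes called both without replicate 1 and without replicate 3, each lower after insulin, and neither was called without replicate 2. Within the vehicle group the livers differed more than within the insulin group: the median SD of log2 CPM over the transporter genes was 0.57 in vehicle and 0.22 in insulin livers, and the vehicle SD was the larger for 42 of 54 genes, or 77.8%, against 85.2% of all tested genes.

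Among the uptake carriers of the sinusoidal membrane, Slco1b2 (Oatp1b2), which carries bile acids, bilirubin and many drugs, gave 1182, 3707 and 913 CPM in the vehicle livers 1 to 3 and 1122, 1052 and 879 CPM in the insulin livers. Vehicle replicate 2 alone was high, and the other 5 livers overlapped. The log2 fold change was -0.93 ± 0.52 (SE; 95% interval -2.13 to 0.27). Slco1a1 (Oatp1a1), a carrier of organic anions and steroid conjugates, had the same shape, with 344, 1185 and 411 CPM in vehicle and 351, 363 and 347 CPM in insulin livers. Its fold change was -0.87 ± 0.46. Without vehicle replicate 2 the fold changes were -0.037 for Slco1b2 and -0.088 for Slco1a1. For both genes the insulin livers lay close together and within or near the range of vehicle replicates 1 and 3.

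Slco1a4 (Oatp1a4), a carrier of cardiac glycosides and organic anions, behaved differently. It gave 8.67, 21.6 and 196 CPM in the vehicle livers and 20.4, 15.9 and 7.66 CPM in the insulin livers. Here replicate 3 was the high vehicle liver, and the other 5 overlapped. The log2 fold change was -2.36 ± 1.04 (95% interval -4.76 to 0.03), the lowest of the transporter genes, and without vehicle replicate 3 it was -0.05 ± 0.51. Markers of periportal hepatocytes moved with it in that liver. The list of 5 genes, none at 0, summed to 2599 CPM in vehicle replicate 3, against 1033 and 1129 in the other vehicle livers and 926 to 1183 in the insulin livers, and Hal, the histidine-degrading enzyme, gave 785 CPM there against 86.3 to 141 elsewhere. Their part in the level of Slco1a4 was not tested.

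These 3 genes lie side by side on chromosome 6 in build GRCm38: Slco1b2 at chr6:141629518-141686646 on the plus strand, Slco1a4 at chr6:141805440-141856199 and Slco1a1 at chr6:141907282-141946962 on the minus strand. The 250 bases before each start site, as RefSeq places it in GRCm38.p6, are shown because the 3 neighbours did not peak in the same liver. They cover chr6:141629268-141629517, chr6:141946963-141947212 and chr6:141856221-141856470, and each is written 5′ to 3′ on the strand of its gene.
Slco1b2: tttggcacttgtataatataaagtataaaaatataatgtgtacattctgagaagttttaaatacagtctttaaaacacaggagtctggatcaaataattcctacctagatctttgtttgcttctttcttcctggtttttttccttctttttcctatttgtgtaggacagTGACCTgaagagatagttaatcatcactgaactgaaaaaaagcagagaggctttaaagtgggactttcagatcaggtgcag
Slco1a1: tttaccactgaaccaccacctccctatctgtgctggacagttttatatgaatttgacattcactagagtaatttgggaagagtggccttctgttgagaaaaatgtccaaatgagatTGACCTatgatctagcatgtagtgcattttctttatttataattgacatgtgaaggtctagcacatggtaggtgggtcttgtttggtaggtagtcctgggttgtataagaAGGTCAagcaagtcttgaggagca
Slco1a4: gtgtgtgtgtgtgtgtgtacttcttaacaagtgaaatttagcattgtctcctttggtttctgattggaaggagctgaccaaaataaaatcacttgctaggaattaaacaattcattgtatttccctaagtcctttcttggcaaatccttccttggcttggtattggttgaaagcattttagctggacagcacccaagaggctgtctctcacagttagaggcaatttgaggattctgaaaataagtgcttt
Capitals mark the core letters of the nuclear receptor motif, AGGTCA or TGACCT on the other strand. The Slco1b2 stretch held TGACCT 81 to 76 bases before the start, and the Slco1a1 stretch held the nuclear receptor letters at 134 to 129 and at 24 to 19 bases. The Slco1a4 stretch held none in these letters. Of all 32851 windows of this length in the RefSeq table, 14.0% held these letters, against 7 of the 40 tested transporter genes with a window. The share counts windows, whereas a transporter gene was counted when any of its windows held the letters. No binding was measured, and these matches are a description of the letters only.

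The remaining Slco genes showed no common direction. Slco2a1, the prostaglandin carrier, gave 13.4, 20.3 and 47.0 CPM in vehicle and 14.3, 16.8 and 22.4 CPM in insulin livers, again highest in vehicle replicate 3, without which its fold change was 0.085. Slco2b1, a broad organic anion carrier, gave 60.7, 47.0 and 96.4 CPM in vehicle and 68.5, 61.5 and 68.8 CPM in insulin livers. Its log2 fold change was -0.04 ± 0.29, with a 95% interval of -0.71 to 0.63. Slco3a1, chosen for mention after its values were seen, was the only Slco gene above 0, at 0.61 ± 0.46, at 2.34 CPM in vehicle replicate 3 against 7.73 to 11.3 CPM in the rest.

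Slc22a5 (Octn2), the carnitine carrier that feeds fatty acid oxidation, gave 78.5, 57.2 and 77.1 CPM in vehicle and 73.7, 67.1 and 57.2 CPM in insulin livers (-0.10 ± 0.23, 95% interval -0.63 to 0.43). The groups overlapped. Slc22a5 shared 36.5% of its 31-base stretches with its neighbour Slc22a21, so some of its reads could have been counted for either gene. Slc22a7 (Oat2), an organic anion and nucleotide carrier, gave 47.3, 46.1 and 12.8 CPM in vehicle and 26.1, 29.6 and 34.8 CPM in insulin livers. Vehicle replicate 3 was the low liver here, and without it the fold change went from -0.23 ± 0.45 to -0.63 ± 0.22 and passed the criteria. Leaving out vehicle replicate 1 gave 0.04 and leaving out vehicle replicate 2 gave 0.01, so its direction turned with the liver left out.

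Among the lowest fold changes of the family were those of 2 close paralogs on chromosome 19 with no assigned substrate here. Slc22a29, named after its values were seen, lies between them and was low in every liver, at 0.143 to 0.634 CPM in vehicle and 0.0 to 0.52 CPM in insulin livers (-0.94 ± 1.02). Slc22a30 gave 71.5, 198 and 63.2 CPM in vehicle and 58.7, 63.4 and 56.0 CPM in insulin livers, and its fold change of -0.90 ± 0.43 had the smallest p of the family. Slc22a28 gave 7.09, 22.9 and 2.96 CPM in vehicle and 5.27, 5.67 and 3.69 CPM in insulin livers (-1.17 ± 0.66). Without vehicle replicate 2 the fold change was -0.034 for Slc22a28 and -0.18 for Slc22a30. Vehicle replicate 2 was the highest liver for both, by 2.10 log2 units above the median of the other livers for Slc22a28 and 1.64 for Slc22a30. Their values are not independent, since 67.0% of the 31-base stretches of Slc22a28 also occur in Slc22a30 and reads could not be assigned with certainty. The 250 bases before the 2 starts, at chr19:8131983-8132232 and chr19:8405106-8405355 on the minus strand, are shown because both genes were highest in the same liver and the likeness goes on beyond the transcripts.
Slc22a28: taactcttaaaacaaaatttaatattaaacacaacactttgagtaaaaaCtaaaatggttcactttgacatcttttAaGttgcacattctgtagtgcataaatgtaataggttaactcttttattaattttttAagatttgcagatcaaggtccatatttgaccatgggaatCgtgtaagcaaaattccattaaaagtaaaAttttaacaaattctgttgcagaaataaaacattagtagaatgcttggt
Slc22a30: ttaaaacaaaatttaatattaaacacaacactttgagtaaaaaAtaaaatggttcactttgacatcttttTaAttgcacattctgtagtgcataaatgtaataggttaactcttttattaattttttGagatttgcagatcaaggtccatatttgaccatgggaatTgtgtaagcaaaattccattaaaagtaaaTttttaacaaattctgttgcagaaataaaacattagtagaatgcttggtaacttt
Capitals mark the mismatches: over the 244 bases that could be laid side by side without a gap there were 6, or 97.5% identity. Neither stretch held the nuclear receptor letters.

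At the canalicular membrane, Abcc2 (Mrp2), which exports conjugated bilirubin and glutathione conjugates, gave 263, 394 and 278 CPM in vehicle and 207, 221 and 252 CPM in insulin livers. Every insulin liver was below every vehicle liver, with a log2 fold change of -0.46 ± 0.25 that did not pass the criteria (95% interval -1.04 to 0.11) and was -0.25 without vehicle replicate 2. Abcb4 (Mdr2), which flips phosphatidylcholine into bile, gave 185, 272 and 226 CPM in vehicle and 192, 165 and 211 CPM in insulin livers (-0.27 ± 0.24). Its groups overlapped. Abcg2 (Bcrp), an efflux pump for urate, porphyrins and drugs, gave 95.3, 223 and 53.8 CPM in vehicle and 89.6, 84.8 and 83.8 CPM in insulin livers. For Abcg2 the insulin livers lay close together inside a wide vehicle range, from replicate 3 at the bottom to replicate 2 at the top. The fold change was -0.53 ± 0.47, and without vehicle replicate 3 it was -0.89 ± 0.35 and passed the criteria. Without vehicle replicate 2 the direction turned, to 0.21.

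Abcg5 and Abcg8 form the heterodimer that exports cholesterol and plant sterols into bile. Abcg5 gave 70.2, 53.8 and 80.8 CPM in vehicle and 61.8, 76.4 and 40.4 CPM in insulin livers (-0.20 ± 0.29, 95% interval -0.87 to 0.48). Abcg8 gave 43.5, 35.1 and 72.2 CPM in vehicle and 40.2, 35.7 and 54.7 CPM in insulin livers (-0.21 ± 0.32, 95% interval -0.95 to 0.53). In both genes vehicle replicate 3 was the highest liver and the groups overlapped. Insulin replicate 3 was the lowest liver for Abcg5 at 40.4 CPM but the next highest for Abcg8 at 54.7 CPM, so the genes of this dimer did not rank the livers alike. Annotated exons of the 2 genes overlap on opposite strands, and whether counting used strand was not stated. The genes are read away from each other, and the 109 bases between their RefSeq starts, chr17:84683012-84683120, are shown on the plus strand because they lie before both genes.
Abcg5 to Abcg8: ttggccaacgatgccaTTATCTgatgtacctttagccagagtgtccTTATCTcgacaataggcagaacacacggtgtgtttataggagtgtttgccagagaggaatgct
Capitals mark TTATCT, the GATA factor letters AGATAA on the other strand, at 93 to 88 and 63 to 58 bases before the Abcg8 start. Of the 32851 windows cut to the last 109 bases before a start, 3.98% held these letters and 0.177% held them more than once. The multidrug pumps Abcb1a and Abcb1b were low in every liver. Abcb1b gave 2.11, 5.03 and 1.43 CPM in vehicle and 3.51, 2.77 and 3.32 CPM in insulin livers. Its fold change was 0.17 ± 0.48 with all livers and 0.86 ± 0.32, past the criteria, without vehicle replicate 2. Abcb1a gave 1.0, 1.29 and 2.0 CPM in vehicle and 0.72, 1.13 and 1.01 CPM in insulin livers, and 21.4% of its 31-base stretches also occur in Abcb1b.

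**Figure D2:**
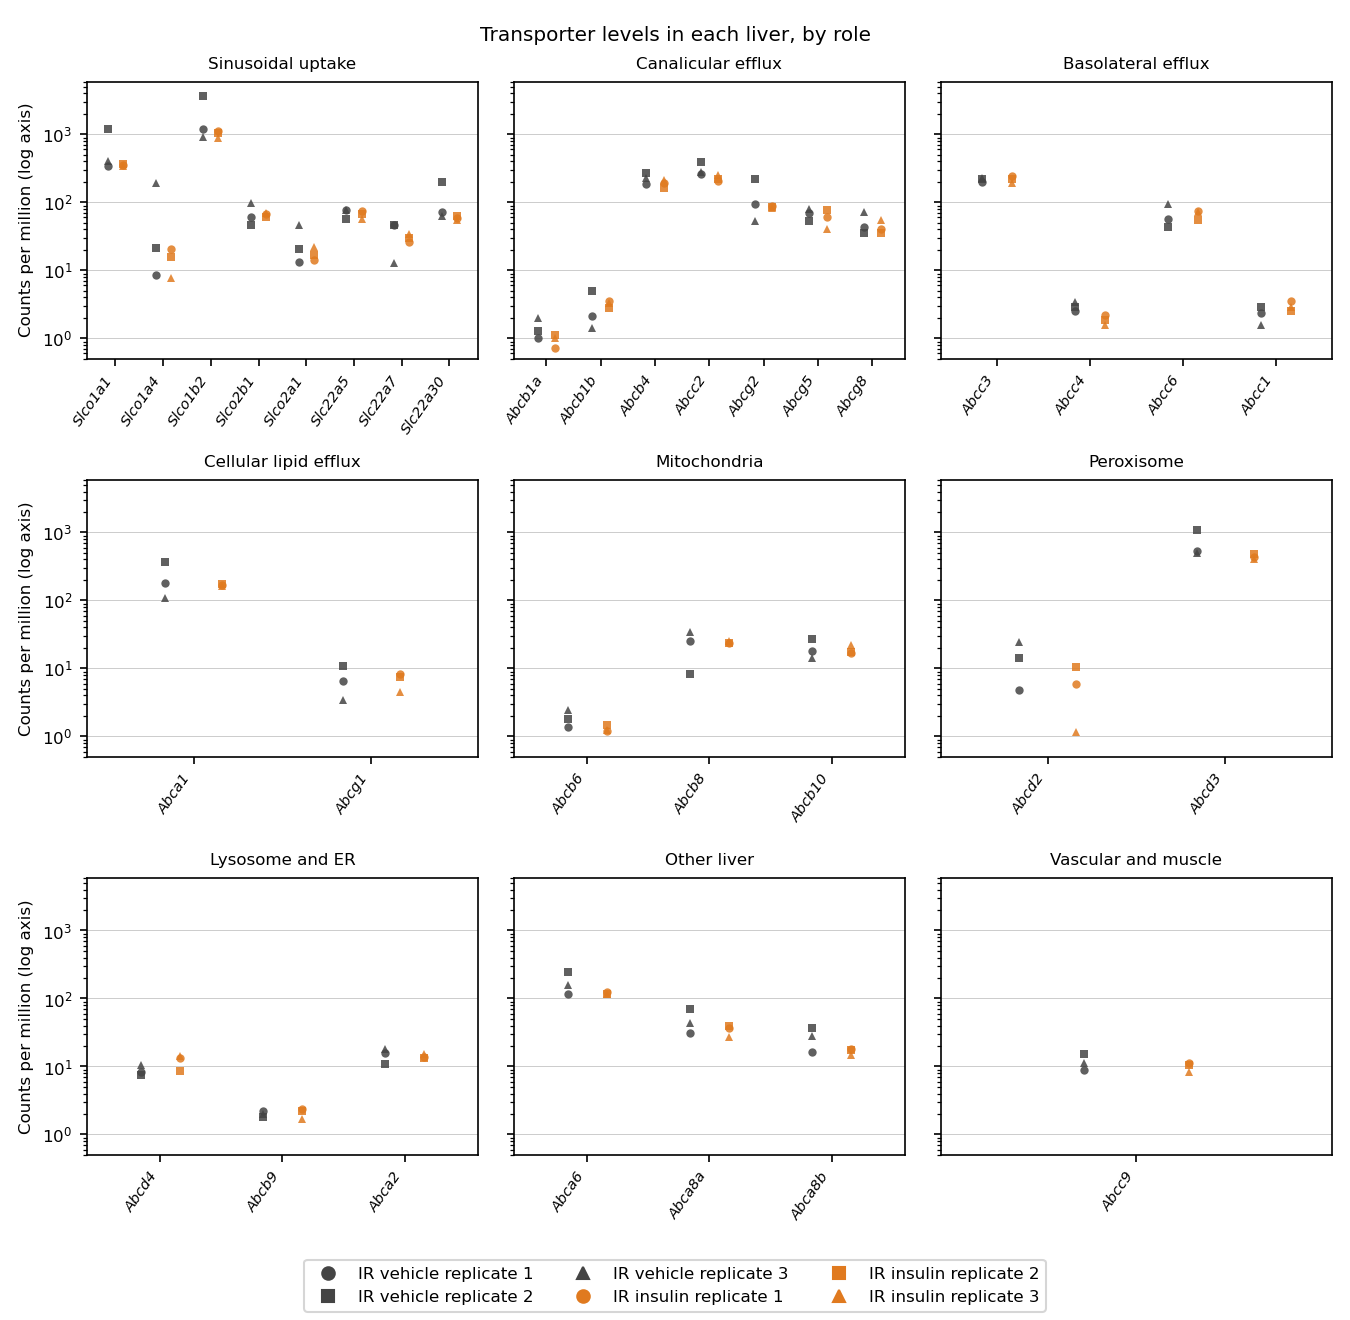
CPM on a log axis for the genes of each role, with 1 point per liver: vehicle in grey at the left, insulin in orange at the right, and replicates 1 to 3 as circle, square and triangle. The grey square (vehicle replicate 2) is the top point for Slco1b2, Slco1a1, Slc22a30 and Abcd3, the grey triangle (vehicle replicate 3) for Slco1a4 at 196 CPM, and the orange points mostly lie close together.

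At the basolateral membrane, Abcc3 (Mrp3), which returns conjugates to the blood, was even across the livers. It gave 202, 224 and 232 CPM in vehicle and 245, 218 and 194 CPM in insulin livers, means of 219 ± 15.6 and 219 ± 25.8 (SD, n = 3 each). The 95% interval of the log2 fold change ran from -0.50 to 0.50. Abcc6, whose loss causes ectopic calcification in pseudoxanthoma elasticum, gave 57.6, 42.9 and 94.4 CPM in vehicle and 75.7, 54.7 and 71.6 CPM in insulin livers (0.05 ± 0.32). The groups of both genes overlapped fully. Abcc4 (Mrp4), an exporter of cyclic nucleotides and bile acids, gave 2.54, 2.89 and 3.43 CPM in vehicle and 2.21, 1.86 and 1.57 CPM in insulin livers. Every insulin liver was below every vehicle liver at this low level, with a fold change of -0.65 ± 0.33 (95% interval -1.42 to 0.12). Abcc4 was the 1 gene of the 4 with separate groups in which vehicle replicate 2 was not the highest liver. Abcc1 gave 1.57 to 2.89 CPM in vehicle and 2.55 to 3.51 CPM in insulin livers (0.39 ± 0.36).

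Abca1, which loads cholesterol and phospholipid on apolipoprotein A-I to form high-density lipoprotein, gave 179, 362 and 109.6 CPM in vehicle and 169, 175 and 162 CPM in insulin livers. The insulin livers lay close together, between the lowest and the highest vehicle liver. The fold change was -0.36 ± 0.41, and it was 0.23 without vehicle replicate 2. Abcg1, which passes cholesterol to mature lipoproteins, gave 6.56, 11.0 and 3.39 CPM in vehicle and 8.42, 7.53 and 4.47 CPM in insulin livers (-0.03 ± 0.45). Both genes were highest in vehicle replicate 2 and lowest in vehicle replicate 3.

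Of the ABC proteins of mitochondria, Abcb8, of the inner membrane, was low in vehicle replicate 2, with 25.6, 8.29 and 34.1 CPM in vehicle and 23.9, 24.0 and 25.3 CPM in insulin livers (0.11 ± 0.45). Abcb10, linked to haem synthesis, gave 14.0 to 27.1 CPM in vehicle and 16.9 to 22.4 CPM in insulin livers (-0.07 ± 0.29). Abcb6, a porphyrin carrier, gave 1.37 to 2.43 CPM in vehicle and 1.22 to 1.47 CPM in insulin livers (-0.51 ± 0.39). Its count is uncertain, since 68.5% of its 31-base stretches also occur in Gm29253, a gene model that overlaps it on the same strand.

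Peroxisomal ABC proteins import fatty acyl-CoA for beta-oxidation. Abcd3, the most abundant, which takes long and branched chains and bile acid intermediates, gave 533, 1071 and 505 CPM in vehicle and 433, 475 and 405 CPM in insulin livers. Every insulin liver was below every vehicle liver, with a log2 fold change of -0.68 ± 0.34 (95% interval -1.46 to 0.10). Without vehicle replicate 3 it was -0.87 ± 0.32, past the criteria, and without vehicle replicate 2 it was -0.24. Abcd2, which takes very long chains, spread widely within both groups: 4.76, 14.4 and 24.4 CPM in vehicle and 5.99, 10.5 and 1.15 CPM in insulin livers (-1.30 ± 0.78). Its lowest liver was insulin replicate 3, and without that liver the fold change was -0.80.

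In lysosomes and the endoplasmic reticulum, Abcd4, which helps release cobalamin from lysosomes, gave 8.35, 7.55 and 10.6 CPM in vehicle and 13.5, 8.70 and 14.2 CPM in insulin livers (0.45 ± 0.28). Abca2, a lysosomal lipid carrier, gave 10.9 to 18.1 CPM in vehicle and 13.1 to 15.5 CPM in insulin livers (-0.08 ± 0.26). Abcb9, a lysosomal peptide carrier, gave 1.78 to 2.22 and 1.71 to 2.34 CPM (0.07 ± 0.34). All 3 had overlapping groups. Abcc9, the sulphonylurea receptor of muscle and vascular potassium channels, gave 8.99 to 15.3 CPM in vehicle and 8.26 to 11.1 CPM in insulin livers (-0.24 ± 0.28). Abcg3, a rodent gene, gave 2.43 to 4.42 CPM in vehicle and 1.75 to 2.75 CPM in insulin livers (-0.63 ± 0.38).

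Among the Abca genes with the lowest fold changes were 5 that sit in a row on chromosome 11. There Abca8b, Abca8a, Abca9, Abca6 and Abca5 follow each other between 109932190 and 110337716, all on the minus strand. All 5 were tested and all 5 lay below 0, at -0.68, -0.46, -0.62, -0.56 and -0.36 in that order. Abca1, on another chromosome, was also at -0.36. Abca6, the most abundant, gave 118, 247 and 160.2 CPM in vehicle and 124, 117 and 116 CPM in insulin livers (-0.56 ± 0.30). Abca8b, linked to cholesterol and organic anion export, gave 16.4, 36.6 and 27.9 CPM in vehicle and 17.9, 17.7 and 14.7 CPM in insulin livers (-0.68 ± 0.31, 95% interval -1.41 to 0.04), the smallest p of the Abca family. Abca8a gave 30.8, 69.9 and 43.4 CPM in vehicle and 37.2, 40.0 and 27.5 CPM in insulin livers (-0.46 ± 0.33). Vehicle replicate 2 was the highest liver in each of the 5, and vehicle replicate 1 lay within or next to the insulin range in all but Abca5, where the insulin livers lay between vehicle replicates 3 and 1. Without vehicle replicate 1, Abca8b (-0.94 ± 0.25), Abca6 and Abca9 passed the criteria. In that fit 9.81% of all genes passed, and 5.33% passed with a lower level after insulin. Without vehicle replicate 2 the fold changes were nearer 0, at -0.40 for Abca8b, -0.22 for Abca6 and -0.083 for Abca8a, and none passed.

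Over the 54 transporter genes, vehicle replicate 2 was the highest liver for 22 and the lowest for 13, and vehicle replicate 3 the highest for 15 and the lowest for 12. Over all tested genes replicate 2 was the highest liver for 35.8% and the lowest for 37.4%, so it led the transporter genes (40.7%) more often than it trailed them (24.1%). Insulin replicate 3 was the lowest liver for 18 transporter genes (33.3%, against 13.4% of all genes). The summed CPM of all transporter genes was 4335, 9095 and 4427 in vehicle and 4127, 4068 and 3835 in insulin livers, and Slco1b2 made up 40.8% of the sum in vehicle replicate 2 and 20.6% to 27.3% elsewhere. Without Slco1b2 the sums were 3153, 5388 and 3514 in vehicle and 3006, 3016 and 2956 in insulin livers. The genes high in replicate 3 were others: Slco1a4 stood 3.61 log2 units above the median of the other 5 livers there, Abcd2 2.01 and Slco2a1 1.48.

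**Figure D3:**
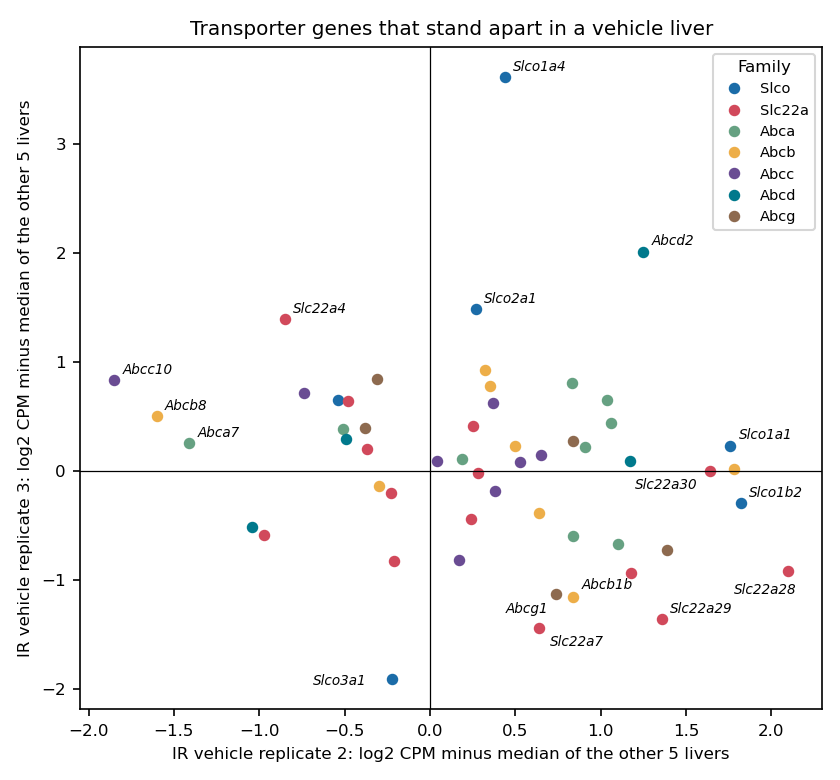
Each point is 1 of the 54 tested transporter genes, placed by its log2 CPM in IR vehicle replicate 2 (x axis) and replicate 3 (y axis) minus the median of the other 5 livers, and coloured by family. Slc22a28 lies furthest to the right at 2.10 and Slco1a4 at the top at 3.61, and few genes are high in both livers, with Abcd2 at 1.25 and 2.01.

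The position of vehicle replicate 2 went with base composition. Across the 54 transporter genes its deviation from the other livers had a Spearman rho of -0.794 with the GC content of the longest transcript, as a description over genes that share libraries, against -0.666 over the 13367 tested genes with a GC value. In the other libraries this rho lay between -0.151 and 0.476 for the transporter genes. Of the 18 transporter genes with the lowest GC content (37.9% to 44.5%), which held Slco1b2, Slco1a1, Slco1a4, Abcg2, Slc22a30 and the Abca8 genes, 17 had a fold change below 0, with a median of -0.68. The 18 genes of highest GC content (52.3% to 59.4%) had 11 below 0 and a median of -0.05. The median of the low-GC genes was -0.42 when an offset for GC content was fitted in every library and -0.13 without vehicle replicate 2. With the same offset the median of the high-GC genes went from -0.05 to -0.43, with 15 of 18 below 0, and without vehicle replicate 2 it was -0.07. The part of base composition in the transporter levels was otherwise not tested.

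**Figure D4:**
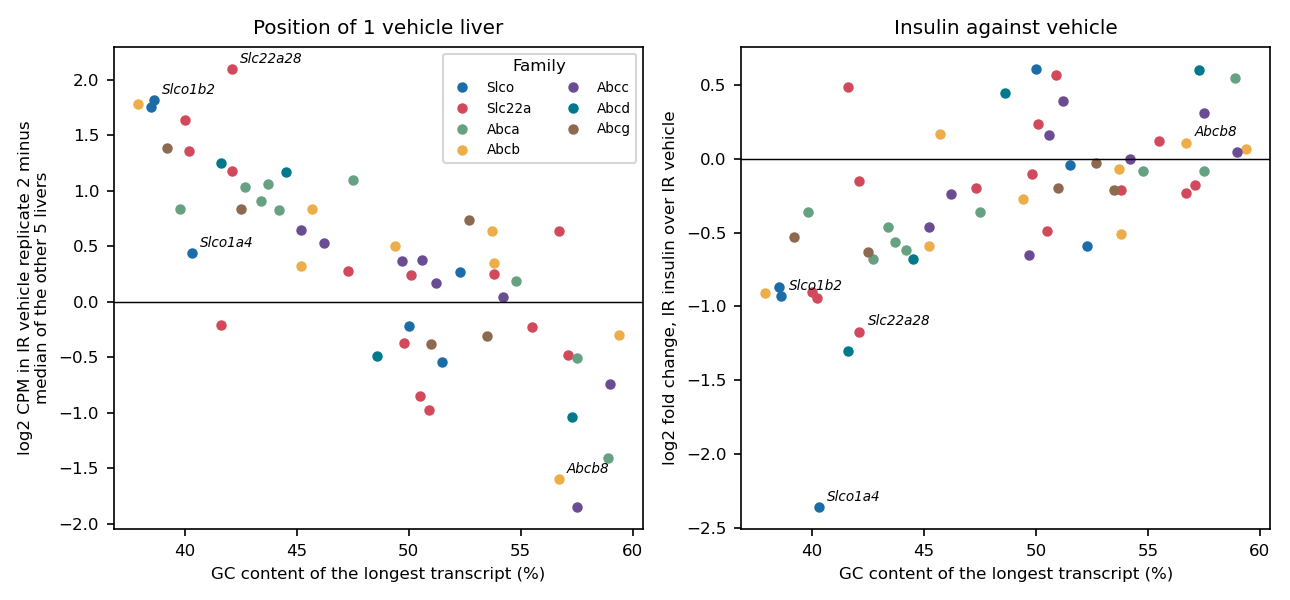
GC content of the longest transcript (x axis, %) of the 54 tested transporter genes against, at left, log2 CPM in IR vehicle replicate 2 minus the median of the other 5 livers and, at right, the log2 fold change of IR insulin over IR vehicle, coloured by family. Points descend from left to right in the left panel (Spearman rho -0.794) and ascend in the right panel (0.656).

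Families held different base compositions, and their medians moved with the fit. The median GC content was 44.2% for Abca and 45.2% for Slco genes, against 51.0% for Abcg and 51.5% for Abcb genes and 49.3% over all tested genes. With the GC offset the Slco median went from -0.73 to -0.41, the Abcb median from -0.17 to -0.42, the Slc22a median from -0.19 to -0.37 and the Abcc median from 0.03 to -0.23, so that the Abcc direction changed. In that fit 42 of 54 transporter genes lay below 0 with a median of -0.34, while the median of all genes was -0.06. Slc22a18, of an imprinted cluster, and Abca2 then passed the criteria at -0.57 ± 0.19 and -0.51 ± 0.20, both named for this after their values were seen. Slc22a18 gave 70.6, 48.7 and 97.5 CPM in vehicle and 67.9, 62.4 and 60.5 CPM in insulin livers before any offset. Without vehicle replicate 2 the medians were -0.16 for Slco, -0.34 for Abcg and between -0.10 and 0.06 for the other 5 families, with 35 of 54 genes below 0, a median of -0.10 over the transporter genes and 0.01 over all genes.

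**Figure D5:**
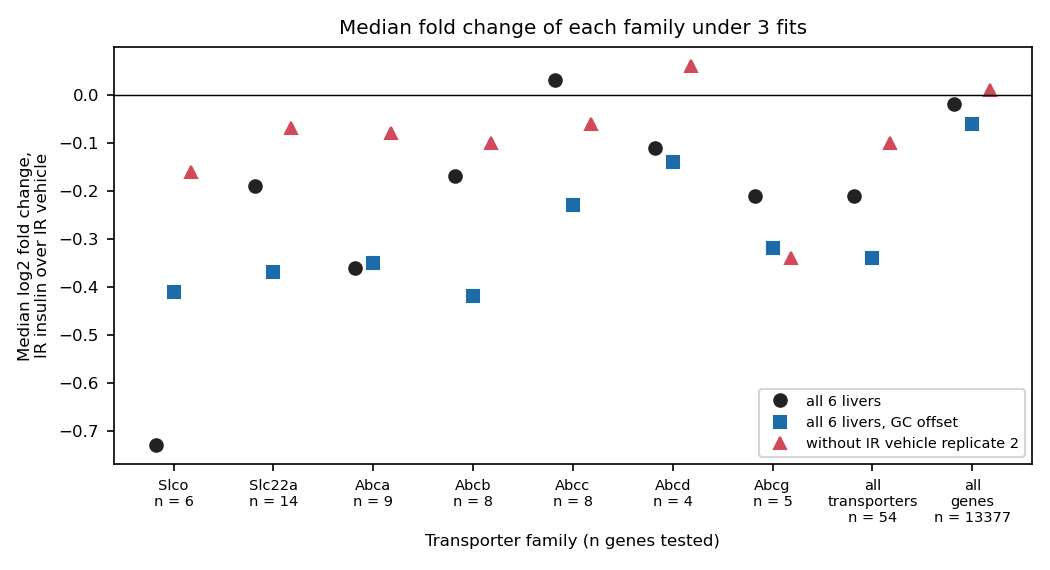
Median log2 fold change (IR insulin over IR vehicle) of each family, of all 54 transporter genes and of all 13377 genes with 3 fits: all 6 livers (circles), all 6 livers with a GC offset (squares) and without IR vehicle replicate 2 (triangles). The Slco median lies at -0.73, -0.41 and -0.16 in that order, and the median of all genes stays between -0.06 and 0.01.

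Carriers, scaffolds and regulators that work with these transporters were followed as a list of 39 genes, of which 36 were tested. Past the criteria were 2 of them, Ahr among them, both lower after insulin and neither after adjustment (adjusted p = 0.852 in edgeR's quasi-likelihood test). Of all tested genes, 2.86% passed in either direction and 1.86% passed with a lower level after insulin. Ahr, the aryl hydrocarbon receptor, gave 19.1, 57.0 and 31.5 CPM in vehicle and 12.2, 12.8 and 23.2 CPM in insulin livers, with overlapping groups (-1.16 ± 0.44). It was -0.65 ± 0.33 and not past the criteria without vehicle replicate 2. Over the 36 genes, 18 lay below and 18 above 0 with a median of 0.0, where the transporter genes had 39 of 54 below 0.

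Among the other carriers, 10 of 11 tested genes lay below 0 with a median of -0.31. Tmem30a, a subunit of phospholipid flippases, gave 215, 461 and 223 CPM in vehicle and 212, 180.1 and 173 CPM in insulin livers (-0.67 ± 0.34). The regulators were split, with 4 of 13 below 0 and a median of 0.07. Nr5a2, a nuclear receptor of bile acid genes, gave 40.3, 82.8 and 45.3 CPM in vehicle and 34.8, 39.1 and 45.6 CPM in insulin livers (-0.49 ± 0.31). Nr1h2, an oxysterol receptor looked at after its values were seen, was low where Slco1b2 was high: in vehicle replicate 2 it gave 6.88 CPM, against 32.4 to 43.3 CPM in the other livers. Of the apical scaffold, Rdx, which ties the canalicular membrane to actin, gave 138, 375 and 159.9 CPM in vehicle and 124, 134 and 150.1 CPM in insulin livers (-0.72 ± 0.39), and Pdzk1, a scaffold for carriers, gave 4.73 CPM in vehicle replicate 2 against 16.3 to 29.5 CPM in the rest (0.83 ± 0.47). The 4 ATP-binding ABC proteins that cross no membrane had a median of 0.13, with Abcf1 at 0.29 ± 0.23 and Abcf3 at 0.29 ± 0.24. The 4 haem and peroxisome partners had a median of 0.14, with Fech, which inserts iron into haem, at -0.13 ± 0.21.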

How the data were processed

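Liver RNA of 6 mice was sequenced by the authors on an Illumina HiSeq, from libraries of the NEBNext Ultra kit. Reads were mapped to mm10, and the submitters' processing notes name Bowtie2 2.2.3. The deposited table holds raw read counts per Ensembl gene, neither normalised nor pooled. The counting program, its annotation and its use of strand are not given in the sources used here, and 13 tested transporter genes have exons that overlap a gene on the opposite strand. A library of average size has 20.5 counts per CPM.

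Samples were grouped by their titles. The p-values set the difference between groups against the spread between mice (3 a group), which edgeR estimates with information shared over all tested genes. Counts were filtered (filterByExpr, minimum count 10, minimum total 15), scaled by TMM and tested with edgeR 4.0.16 (quasi-likelihood, Benjamini-Hochberg adjustment over 13377 genes) in R 4.3.3. DESeq2 1.42.0 and limma 3.58.1 (voom) were alternatives, and the main kinds of fit were checked on simulated data. The simulated data had no outlying library and no trend with GC content, so they cannot tell how the fits handle either one. The GC offset is a loess curve (span 0.5) of each library's log2 CPM minus the gene's mean (prior count 2) on GC content. CPM use TMM-scaled library sizes, and levels per kb divide them by the exon length in GENCODE M21, which is of the same build. Shared sequence is the percentage of a gene's 31-base stretches found in another gene. Start-site windows came from RefSeq (GRCm38.p6) and were found for 68 of 85 transporter genes. Those without one included Abca6, Abcb8, Abcc1, Abcc3, Abcc6, Abcc8, Abcd2, Abcd4, Abcg1, Abcg4, Slc22a21, Slc22a7, Slco3a1 and Slco5a1.

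Genes named were members past the study's criteria, the 2 smallest p of each family, members with a known liver role, and from the partner list those past the criteria and the 2 smallest p of each of its 5 groups. Some of these genes are not reported here. The members, lists and tests were chosen with earlier results of these data known. Marker lists not mentioned in the results (sinusoidal endothelium, stellate cell, Kupffer cell, bile duct, neutrophil, pericentral hepatocyte, adipocyte) had no gene past the criteria.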

Additional observations from a re-analysis of the deposited data

How the results depend on the processing

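No gene passed an adjusted p of 0.05 in any of the 14 alternatives, which were RLE and upper-quartile scaling, no filter on low counts, DESeq2, voom with quality weights, a GC offset, a replicate block with and without it, and the removal of each liver. The transporter genes past the study's criteria were 0 of 54 with all livers. They numbered 1 of 66 with DESeq2 (Slc22a30, against 2.38% of all genes) and 2 of 54 with the GC offset (3.53%). With no filter there were 5 of 66 (3.22%), and with the replicate block and GC offset 1 of 54 (2.5%). When a liver was left out they numbered 0 to 8, against 0.727% to 9.81% of all genes. The 2 of 36 partner genes past the criteria became 1 with the GC offset and 4 of 39 with no filter. They numbered 0 with voom (1.59% of all genes) and 0 to 6 of 36 when a liver was left out. Over all genes, 383 passed with all livers (1.86% of genes lower, of 2.86%), 213 with voom, 742 with no filter, 1349 and 888 without vehicle replicates 1 and 3, and 99 to 143 without 1 insulin liver. The lower share was 2.83% of 3.53% with the GC offset, 0.882% of 2.40% with the replicate block and 0.785% of 1.59% with voom. The sample labels state no pairing of same-numbered mice. Correlations of their deviations were -0.039, 0.0688 and 0.0174, against -0.11 to 0.0891 for differently numbered mice. These values cannot tell whether mice were paired. The replicate block left 0 transporter and 2 partner genes past the criteria, and Slco1a4 at -1.05, against -0.29 with voom.

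Of 43 named genes, 25 kept their direction in every alternative, and of the 35 transporter genes among them 18 did, 16 below and 2 above 0. The others changed sign, and the cause was not tested. With the GC offset the log2 fold change was -0.14 for Abcb8, -0.53 for Abcb9, -0.45 for Abcc6 and -0.015 for Abcf1, and with the replicate block as well -0.085, -0.49, -0.42 and -0.0099 for these and 0.0081 for Abcg2. With the replicate block alone it was 0.069 for Abcg1 and 0.026 for Slco2b1. With voom it was 0.022 for Abca1, 0.052 for Abca8a, 0.026 for Abcb10, -0.08 for Abcb8, 0.1 for Abcc3, 0.081 for Abcc9 and 0.32 for Abcg1. For Abcc3 and Abcg1 it was 0.036 and 0.012 with no filter and 0.047 and 0.034 with upper-quartile scaling. When a liver was left out the range was -0.68 to 0.23 for Abca1, -0.26 to 0.079 for Abca2, -0.27 to 0.23 for Abcb10, -0.15 to 0.86 for Abcb1b, -0.29 to 0.52 for Abcb8, -0.0098 to 0.21 for Abcb9, -0.082 to 0.092 for Abcc3, -0.17 to 0.42 for Abcc6, -0.36 to 0.46 for Abcg1, -0.89 to 0.21 for Abcg2, -0.42 to 0.027 for Abcg5, -0.41 to 0.15 for Abcg8, -0.63 to 0.04 for Slc22a7, -0.91 to 0.085 for Slco2a1 and -0.24 to 0.30 for Slco2b1. The 3 tested transporter genes with a mean under 1 CPM rest on fewer than 20.5 counts in a library of average size.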
